A study of Mus musculus with 7 samples.

Results

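Surface proteins that define mouse hematopoietic stem and progenitor cells were followed at the transcript level in RNA-sequencing libraries of sorted stem cells. The 10 genes were chosen by name, as the rows of the deposited table whose symbol is Ly6a, Kit, Slamf1, Cd48, Cd34, Procr, Flt3, Cd27, Esam or Eng. Each symbol matched a single row, so they are 10 of the 33298 genes in the table. The libraries came from bone marrow of mice aged 12 weeks at homeostasis. Mice labelled Dek_fl carried floxed Dek alleles (Dek fl/fl) and no recombinase, with 4 libraries. Mice labelled Dek_cKO carried the same floxed alleles together with Tie2-Cre, with 3 libraries. Both groups therefore share the floxed alleles, and as no library comes from Tie2-Cre mice without floxed Dek, loss of Dek and presence of the recombinase cannot be told apart. Tie2-Cre is driven by the promoter of a receptor of endothelial cells and their hematopoietic descendants, so it recombines in both lineages. About 800 cells per library were taken by flow cytometry as lineage-negative, Sca-1+, c-Kit+, CD48- and CD150+, and their polyadenylated RNA was amplified with a low-input kit. No label says whether a library is 1 animal or a pool, so the p-values below speak only of spread among libraries, which may be technical.

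Blood stem cells are recognised by sets of surface proteins rather than by any single one. Sca-1 (Ly6a) is a small lipid-anchored protein of the Ly6 family, and c-Kit is the receptor tyrosine kinase for stem cell factor. CD150 (Slamf1) and CD48 are related receptors of the SLAM family of immune adhesion proteins. Long-term stem cells of the mouse carry CD150 and lack CD48, whereas most multipotent progenitors carry CD48. CD34, FLT3 and CD27 rise as stem cells give way to multipotent progenitors, and in the adult mouse the most dormant stem cells carry little CD34. The endothelial protein C receptor (Procr), the adhesion molecule ESAM and the TGF-beta co-receptor endoglin (Eng) mark stem cells and are shared with endothelial cells.

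Values were FPKM, fragments per kilobase of transcript scaled to sequencing depth. Length and depth are thus allowed for when genes of a library are set side by side, but gene-specific amplification and mapping are not. Library totals recovered from the values ran from 4209152 to 26951513 reads, and all values of the 10 genes corresponded to whole numbers of reads in all 7 libraries. Dek_fl replicate 4 stood apart, detecting 8575 genes where the remaining 6 detected 14291 to 19950. It listed 101 of the 1810 genes averaging 50 FPKM or more at 0, and the remaining 6 listed 9 to 45. Libraries of a group resembled each other no more than libraries of different groups, with a mean Pearson's r across genes of 0.541 and 0.553. Dek, the targeted gene, was at 77.0, 118, 143 and 26 FPKM across Dek_fl and 9.6, 8.40 and 12.7 FPKM in Dek_cKO. Its value in Dek_cKO replicate 3 is the only one of the 7 that is not a whole number of reads. That value has 5 decimals and becomes whole when multiplied by 10, at 127 FPKM, which is within the range of Dek_fl. The label of Dek_cKO replicate 3 was kept, and the groups were also compared without it.

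Transcripts of Sca-1 and c-Kit, for which the cells were sorted, were abundant in every library. Ly6a (ENSMUSG00000075602, chromosome 15, 74994877 to 74998031 of GRCm38, minus strand) was at 137, 168, 111 and 310.3 FPKM across Dek_fl and 88.7, 261 and 104 FPKM in Dek_cKO. The highest library held 3.50 times the FPKM of the lowest, and the groups overlapped throughout. Kit (ENSMUSG00000005672, chromosome 5, 75574916 to 75656722, plus strand) was at 70.9, 81.5, 120.1 and 93.8 FPKM across Dek_fl and 59.4, 267 and 86.3 FPKM in Dek_cKO. Dek_cKO replicate 2 was high for both genes, and Dek_fl replicate 4 was high for Ly6a alone. Among genes above 0 in a library, Ly6a lay between percentiles 93.5 and 98.4 and Kit between 88.7 and 98.4. Ly6a belongs to a cluster of similar genes on chromosome 15, among which the counting may have shared reads.

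The pair of SLAM family genes stood the other way round from the sort. Slamf1 (ENSMUSG00000015316, chromosome 1, 171767127 to 171801184, plus strand), which encodes CD150, was at 0, 0, 0.0588 and 1.70 FPKM across Dek_fl and 0.456, 0 and 1.80 FPKM in Dek_cKO. These values are 0, 0, 7 and 34 reads in Dek_fl and 12, 0 and 100 reads in Dek_cKO. Transcripts of the antigen for which the cells were selected were thus at or near 0 in all 7 libraries. A count of 0 allows up to 3 reads, which for Slamf1 is 0.161 FPKM in Dek_fl replicate 1, 0.0434 in Dek_fl replicate 2 and 0.153 in Dek_cKO replicate 2. Cd48 (ENSMUSG00000015355, chromosome 1, 171682009 to 171705258, plus strand), whose protein the sort excluded, was at 146, 206, 147 and 4.10 FPKM across Dek_fl and 52.3, 7.82 and 135 FPKM in Dek_cKO. The libraries fell apart within both groups, with Dek_fl replicate 4 and Dek_cKO replicate 2 low and the other 5 high. The low values rest on 22 and 41 reads, with exact 95% Poisson intervals of 2.57 to 6.21 and 5.61 to 10.6 FPKM, so counting error does not span the gap to the other libraries. Reads were amplified without molecular identifiers in the labels, and intervals and limits of this kind cover counting error only.

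Cd48 and Slamf1 lie 61.9 kb apart on chromosome 1 with no annotated protein-coding gene between them. Their upstream regions are shown because these neighbours take opposite places in the sort and in the libraries. The windows are the 250 bases before the RefSeq start in GRCm38.p6, plus strand, chr1:171766882-171767131 for Slamf1 and chr1:171681742-171681991 for Cd48. Capitals mark matches on either strand to core motifs of blood transcription factors, which are GATAA for GATA factors, GGAAG for ETS factors and TGTGGT for RUNX factors.
Slamf1: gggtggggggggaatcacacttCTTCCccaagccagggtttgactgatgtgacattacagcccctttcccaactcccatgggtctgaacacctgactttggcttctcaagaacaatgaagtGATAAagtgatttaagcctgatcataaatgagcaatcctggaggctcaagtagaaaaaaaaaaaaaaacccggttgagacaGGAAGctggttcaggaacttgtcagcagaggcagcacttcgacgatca
Cd48: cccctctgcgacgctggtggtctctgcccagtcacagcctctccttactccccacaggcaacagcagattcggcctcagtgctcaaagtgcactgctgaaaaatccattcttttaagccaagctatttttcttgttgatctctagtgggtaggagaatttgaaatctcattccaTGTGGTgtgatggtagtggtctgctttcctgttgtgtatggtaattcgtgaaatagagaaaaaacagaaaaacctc
The Slamf1 window holds 1 GATAA and 2 GGAAG matches and no TGTGGT, and the Cd48 window holds 1 TGTGGT and neither of the others, with no overlap between matches. Over 32851 windows of the same length, 22.6% hold GATAA, 64.1% hold GGAAG and 14% hold TGTGGT, so these are common letters and the matches are a description of the windows only.

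**Figure D1:**
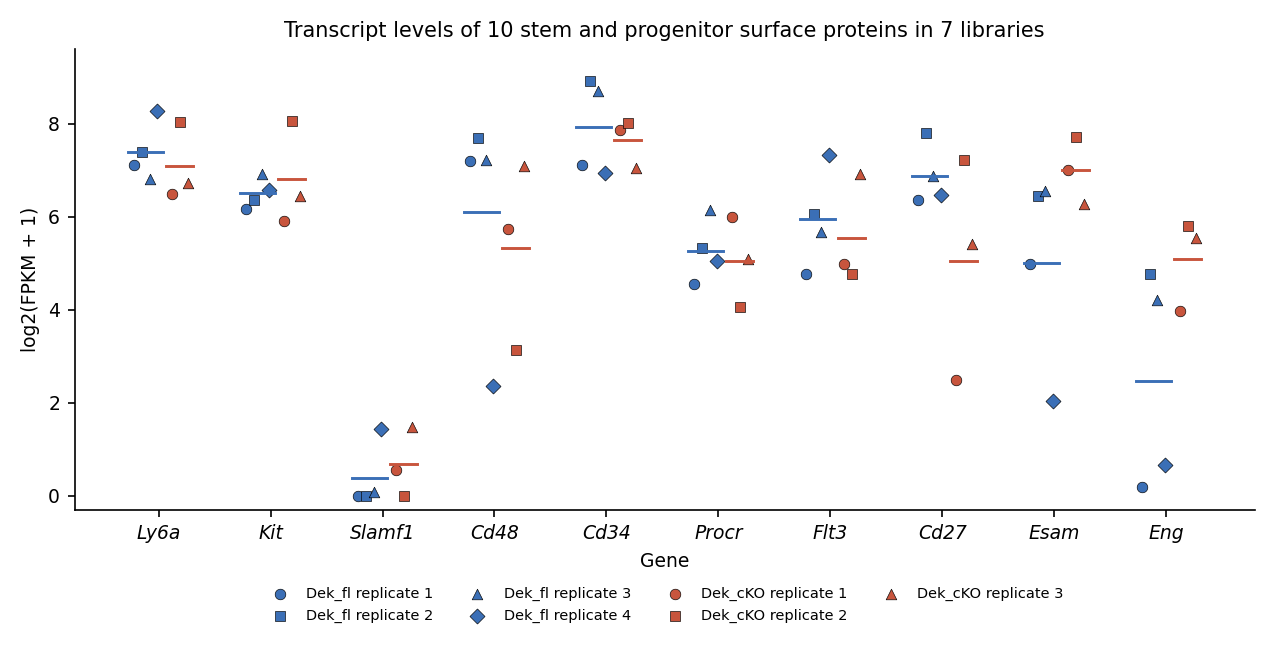
Transcript level of each of the 10 genes in each library, as log2(FPKM + 1), with blue symbols for the 4 Dek_fl and red symbols for the 3 Dek_cKO libraries and a line at each group mean. Slamf1 lies at the foot of the plot in all 7 libraries, while Cd48 lies high in 5 and low in Dek_fl replicate 4 and Dek_cKO replicate 2.

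Set side by side within each library, Cd48 exceeded Slamf1 in 7 of 7 libraries. The mean difference, Slamf1 minus Cd48, was -5.27 ± 2.47 on the log2(FPKM + 1) scale (SD, n = 7), with p = 0.0156 by an exact sign-flip permutation test, two-sided, and 0.0391 after Benjamini-Hochberg adjustment over 5 pairs. With 7 libraries 0.0156 is the smallest p this test can give. Effects of amplification or mapping particular to a gene could be shared by all libraries. For this and the other pairs, p therefore speaks of a shared direction in FPKM and not of true abundance. Leaving out any 1 of the 7 libraries gave differences of -5.99 to -4.86 and took the adjusted p to 0.0781, as the smallest p from 6 libraries is 0.0312. Taken as a ratio of FPKM, Cd48 was 2492-fold above Slamf1 in Dek_fl replicate 3 (exact 95% interval from the reads 1209 to 6206) and 115-fold in Dek_cKO replicate 1 (64.8 to 224). It was 74.9-fold above in Dek_cKO replicate 3 (61.3 to 92.5) and 2.41-fold in Dek_fl replicate 4 (1.34 to 4.24). Where Slamf1 had no read, the measured Cd48 value was set against 3 reads of Slamf1 per library, without the counting error of Cd48. So taken, Cd48 was at least 906-fold higher in Dek_fl replicate 1, at least 4747-fold in Dek_fl replicate 2 and at least 51.1-fold in Dek_cKO replicate 2. The direction was therefore shared by all libraries, while its size differed by orders of magnitude.

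For the other sorted antigens, the difference from Cd48 took both signs across libraries. Ly6a was above Cd48 by 5.93 on the log2(FPKM + 1) scale in Dek_fl replicate 4 and by 4.89 in Dek_cKO replicate 2, and Kit by 4.22 and 4.92. Ly6a minus Cd48 was 1.49 ± 2.72 on the log2 scale (SD, n = 7; exact sign-flip permutation p = 0.344, adjusted 0.430), and Cd48 was the higher of the 2 in 4 of 7 libraries. Kit minus Cd48 was 0.86 ± 2.59 (SD, n = 7; exact sign-flip permutation p = 0.484, adjusted 0.484), again with Cd48 higher in 4 of 7. The sort selected on protein at the cell surface and the libraries measure RNA, and surface protein was not analysed here. In a pool of about 800 cells, many cells with little of a transcript and few cells with much of it cannot be told apart.

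**Figure D2:**
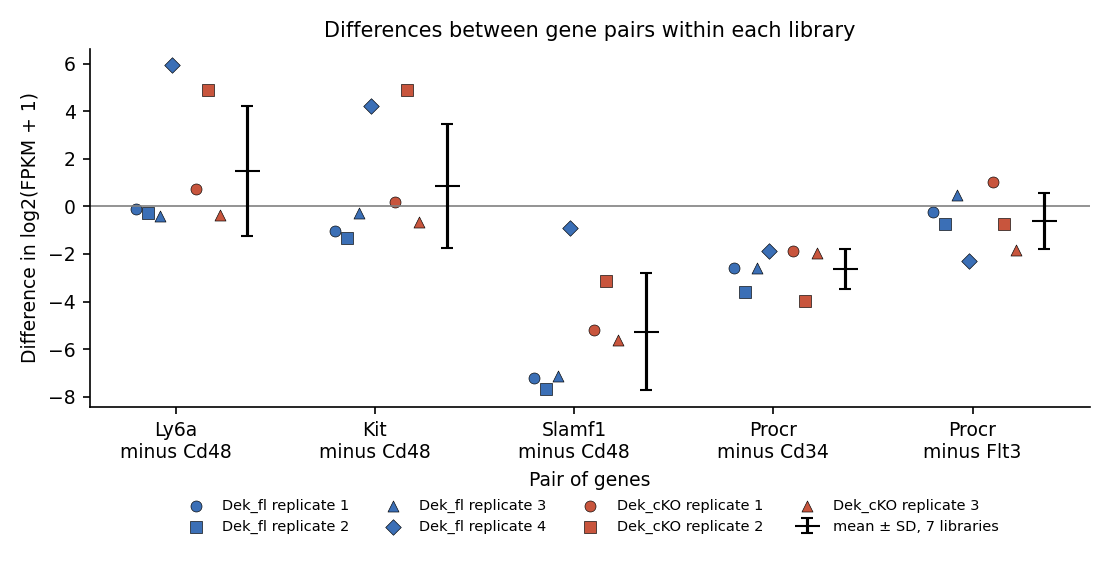
Difference in log2(FPKM + 1) between the genes of 5 pairs within each library (symbols), with the mean ± SD over 7 libraries in black. All 7 points lie below 0 for Slamf1 minus Cd48 and for Procr minus Cd34, and the other 3 pairs have points on both sides of 0.

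Among genes that rise towards multipotent progenitors, Cd34 had the highest mean over libraries, although Flt3 was above it in Dek_fl replicate 4, at 159.8 FPKM. Cd34 (ENSMUSG00000016494, chromosome 1, 194938819 to 194961279, plus strand), a sialomucin of stem, progenitor and endothelial cells, was at 138, 486, 417 and 121 FPKM across Dek_fl and 232, 257 and 132 FPKM in Dek_cKO. It was among the 3 highest of the 10 genes in 7 of 7 libraries. Its exons share 148 bases with those of the antisense gene Gm16897, which reached 57.0 FPKM, and the sources do not state whether counting used strand.

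Flt3 (ENSMUSG00000042817, chromosome 5, 147330741 to 147400489, minus strand), the receptor for FLT3 ligand, was at 26.3, 65.8, 50 and 159.8 FPKM across Dek_fl and 30.5, 26.3 and 119 FPKM in Dek_cKO. Its highest values were in Dek_fl replicate 4 and Dek_cKO replicate 3, which are in different groups. Cd27 (ENSMUSG00000030336, chromosome 6, 125232622 to 125237010, minus strand), a receptor of the tumour necrosis factor receptor family, was at 80.9, 223, 116 and 87.4 FPKM across Dek_fl and 4.63, 148 and 41.4 FPKM in Dek_cKO. Dek_cKO replicate 1 alone was low, with 43 reads, while Dek_cKO replicate 2 lay inside the range of Dek_fl and Dek_cKO replicate 3 below it.

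Of the stem cell markers outside the sort, Procr varied least. Procr (ENSMUSG00000027611, chromosome 2, 155751117 to 155755471, plus strand) was at 22.5, 39.3, 69.7 and 32.2 FPKM across Dek_fl and 63.1, 15.6 and 33.1 FPKM in Dek_cKO. It was below Cd34 in 7 of 7 libraries, with a mean difference of -2.63 ± 0.847 on the log2(FPKM + 1) scale (SD, n = 7; exact sign-flip permutation p = 0.0156, adjusted 0.0391). Without any 1 of the 7 libraries it was -2.76 to -2.41, with an adjusted p of 0.0781. Against Flt3 the difference was -0.61 ± 1.17 (SD, n = 7; exact sign-flip permutation p = 0.25, adjusted 0.417), with Flt3 higher in 5 of 7 libraries.

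Esam (ENSMUSG00000001946, chromosome 9, 37528078 to 37538319, plus strand) was at 30.8, 86.0, 93.2 and 3.08 FPKM across Dek_fl and 128, 209.9 and 75.9 FPKM in Dek_cKO. Dek_fl replicate 4 was low, with 26 reads, and Dek_cKO replicate 3 lay inside the range of Dek_fl. Eng (ENSMUSG00000026814, chromosome 2, 32646595 to 32682669, plus strand) was at 0.139, 26.1, 17.5 and 0.582 FPKM across Dek_fl and 14.6, 54.6 and 45.8 FPKM in Dek_cKO. The values of Dek_fl replicates 1 and 4 are 2 and 9 reads, against 298 to 1964 reads in the other libraries. Eng was thus near 0 in 2 libraries of Dek_fl and present in all of Dek_cKO, with overlap through Dek_cKO replicate 1. Exons of Eng share 61 bases with Fpgs on the other strand, which reached 25.2 FPKM.

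**Figure D3:**
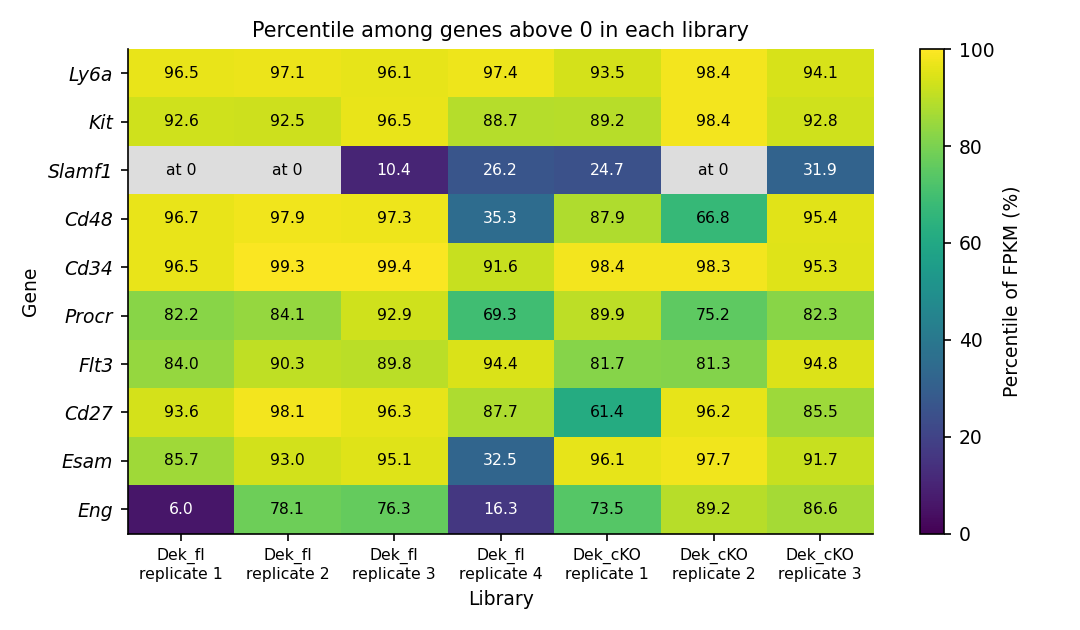
Percentile of the FPKM of each gene (rows) among all genes above 0 in each library (columns), from 0 to 100%, with grey for a value of 0. Ly6a, Kit, Cd34 and Flt3 stay above 80 in every library, and Slamf1 does not pass 31.9.

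In the order of FPKM within a library, Slamf1 was last of the 10 in 6 of 7 libraries and ninth in Dek_fl replicate 4, where Eng was last. Ly6a was among the first 5 in 7 of 7 libraries, and Cd48 among the first 3 in 4 of 7. Over all libraries the mean level fell from Cd34 (255 FPKM) and Ly6a (169 FPKM) through Kit (111), Cd27 (100.3), Cd48 (99.7), Esam (89.6) and Flt3 (68.3) to Procr (39.3), Eng (22.8) and Slamf1 (0.574). The ranges over libraries of each pair of neighbours in this order overlapped, which does not compare the genes within libraries. Of these steps only that from Flt3 to Procr was tested within libraries. The ranges of Eng and Slamf1 met only through Dek_fl replicates 1 and 4, where Eng rests on 2 and 9 reads. The residual SD of log2(FPKM + 1) within groups was 0.72 for Ly6a, 0.75 for Kit, 0.80 for Procr and 0.87 for Cd34. It was 1.59 for Cd27, 1.70 for Esam, 1.94 for Eng and 2.33 for Cd48. The median over the 10260 genes tested was 1.51, and Ly6a lay at percentile 9.8 and Cd48 at percentile 88.0 of that distribution. Spread on this scale can depend on level, and no comparison with genes of like level was made.

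No gene of the 10 was called different between Dek_cKO and Dek_fl. Of the 10, 9 passed the filter of at least 1 FPKM in at least 3 libraries, and Slamf1 did not. By limma, fitted on log2(FPKM + 1) across 10260 genes, 0 of the 9 passed an adjusted p of 0.05, as did 0 of all genes (0%), where 0.9999 was the smallest adjusted p. Dek, the targeted gene, was not called either, at -2.81 on the log2 scale (SE 0.962, limma unadjusted p = 0.00853, adjusted p = 0.9999). Its values as deposited did not overlap between groups, with that of Dek_cKO replicate 3 in doubt. The lack of calls therefore does not show that the 10 genes are unchanged. Before adjustment 0 of the 9 had p under 0.05, against 3.94% of all genes tested, of which 2.12% were higher and 1.81% lower in Dek_cKO. By voom on the recovered reads, 0 genes passed after adjustment and 500 of 9526 before it, among them Cd34 at -1.03 (unadjusted p = 0.0296). The count of 0 among the 9 before adjustment depends on the fit and the libraries. Cd27 had an unadjusted p of 0.00594 without Dek_cKO replicate 2, 0.0252 with array weights and 0.0390 with a replicate block in limma. Esam and Eng had limma unadjusted p of 0.0294 and 0.0320 without Dek_fl replicate 2, and of 0.0249 and 0.0455 without Dek_fl replicate 3. Cd48 had a limma unadjusted p of 0.0336 without Dek_fl replicate 4. In none of the 9 were the groups without overlap, against 4.94% of all genes. The fitted difference was above 0 in 3 and below 0 in 6, with a median of -0.28 on the log2 scale, where the median of all genes was 0.05.

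The 3 genes with the largest differences were Eng, Esam and Cd27. Eng averaged 11.1 ± 12.9 FPKM in Dek_fl (SD, n = 4) against 38.3 ± 21.0 FPKM across Dek_cKO (SD, n = 3), a difference of 2.65 on the log2(FPKM + 1) scale (SE 1.38, limma unadjusted p = 0.0702, adjusted p = 0.9999). Without Dek_fl replicate 1 it was 1.89 and without Dek_fl replicate 4 it was 2.05. Esam averaged 53.3 ± 43.5 and 138 ± 67.5 FPKM in the same order, a log2 difference of 1.99 (SE 0.992, limma unadjusted p = 0.0581, adjusted p = 0.9999), which was 1.0 without Dek_fl replicate 4. Cd27 averaged 127 ± 66.1 and 64.7 ± 74.5 FPKM, a log2 difference of -1.84 (SE 0.938, limma unadjusted p = 0.0643, adjusted p = 0.9999), which was -0.56 without Dek_cKO replicate 1 and -2.93 without Dek_cKO replicate 2. Without Dek_cKO replicate 3, whose Dek value is in doubt, the log2 differences were 2.43 for Eng, 2.36 for Esam and -2.02 for Cd27. Exact permutation of the libraries over all 35 splits, two-sided, gave p = 0.171 for Eng, 0.200 for Esam and 0.171 for Cd27, where 0.0286 is the smallest p possible.

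Differences for the other 6 were smaller than their SE in the fit of all 7 libraries. On the log2(FPKM + 1) scale they were -0.79 for Cd48 (SE 1.17), -0.40 for Flt3 (SE 0.874), -0.32 for Ly6a (SE 0.626), 0.30 for Kit (SE 0.696), -0.28 for Cd34 (SE 0.608) and -0.22 for Procr (SE 0.934). The sign of Cd48 turned without Dek_cKO replicate 2, at 0.30, and it was -2.04 without Dek_fl replicate 4. Cd34 moved to -0.77 with array weights and to -1.03 by voom. The signs of Kit, Cd34, Procr and Flt3 also turned without 1 library or under another fit. Slamf1, outside the fit, averaged 0.440 ± 0.841 FPKM in Dek_fl (SD, n = 4) against 0.753 ± 0.938 FPKM across Dek_cKO (SD, n = 3), with an exact permutation p of 0.571 on the log2(FPKM + 1) scale, two-sided.

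**Figure D4:**
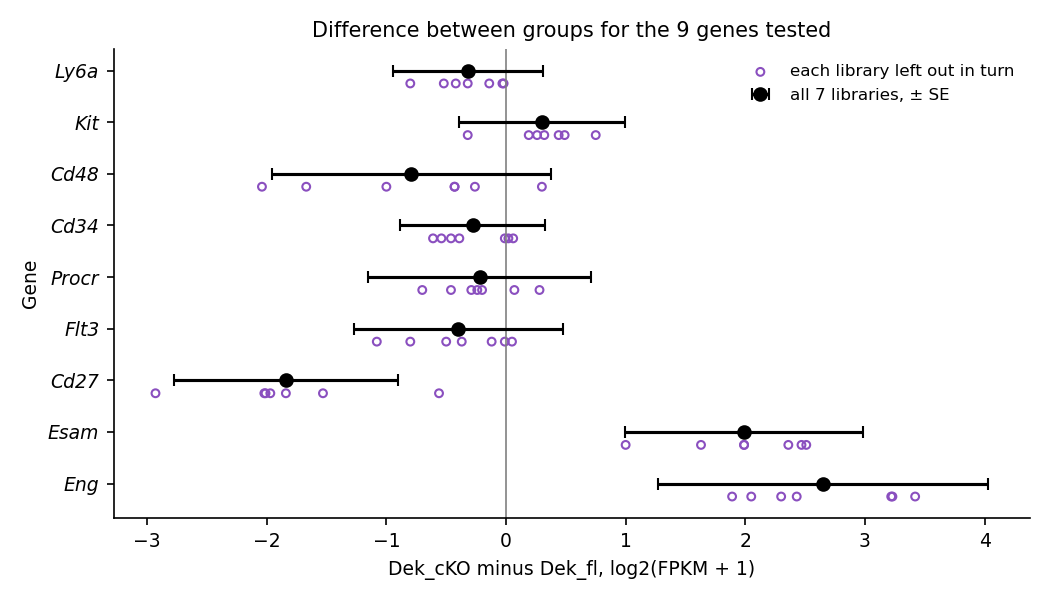
Dek_cKO minus Dek_fl in log2(FPKM + 1) for the 9 genes tested (black, ± SE from limma) and the same value with each library left out in turn (purple circles). Eng, Esam and Cd27 keep their side of 0 in all 7 such fits, as does Ly6a, and circles of the other 5 genes lie on both sides.

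Genes that work with these proteins were read in the same fit, and no member of any list was called. The 10 lists together give counts that are set beside the 3.94% of all genes at an unadjusted p under 0.05. Of the SLAM family and its adaptors, 4 of 11 genes in the table were tested, with 0 at an unadjusted p under 0.05 and a median log2 difference of 0.71. The 2 of smallest p were Ly9, a SLAM receptor also known as CD229, at 2.22 (SE 1.21) and Cd84 at 0.96 (SE 1.21). Ly9 was at 3.44, 0.0257, 0 and 0 FPKM across Dek_fl and 0, 31.2 and 8.72 FPKM in Dek_cKO, so its higher values rest on 2 libraries.

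Of the ligands and signalling proteins of c-Kit and FLT3, 17 of 20 were tested, with 0 at an unadjusted p under 0.05, 1 without overlap, against 4.94% of all genes, and a median of 0.09 on the log2 scale. The gene without overlap was Stat5a, a transcription factor activated by cytokine receptors, at 38.4, 27.8, 27.8 and 27.6 FPKM in Dek_fl and 2.04, 8.23 and 17.8 FPKM in Dek_cKO. Its log2 difference was -1.95 (SE 1.14), and that of Ptpn6, the phosphatase SHP-1, was -1.11 (SE 0.753). Of the Ly6 and uPAR family, 4 of 13 were tested with 0 at an unadjusted p under 0.05 and a median of 0.24. Ly6c2, a Ly6 protein of monocytes and other leukocytes, had 2.09 (SE 1.71) and was at 267 FPKM in Dek_cKO replicate 3 against 0 to 27.9 FPKM in the other libraries. Cd59a, an inhibitor of complement, had -0.96 (SE 1.27).

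Of the endoglin receptor complex with its ligands and SMAD proteins, 14 of 21 were tested, with 0 higher and 1 lower at an unadjusted p under 0.05, 1 without overlap, against 4.94% of all genes, and a median of 0.39. The lower gene was Smad2, an effector of TGF-beta receptors, at -2.64 (SE 1.26), and the gene without overlap was Id1, a target of BMP signals, at 2.18 (SE 1.12). The values of both are not whole reads in all libraries at an annotated transcript length. Of the partners of PROCR, 3 of 9 were tested with 0 at an unadjusted p under 0.05 and a median of 0.76, where Cd1d1, a lipid-presenting relative of MHC class I, had -1.72 (SE 0.900) and the thrombin receptor F2r had 1.09 (SE 1.23). Of the partners of CD27, 4 of 7 were tested with 0 at an unadjusted p under 0.05 and a median of 0.34, where the kinase gene Map3k14 had 1.45 (SE 1.13) and the adaptor Traf2 had 0.65 (SE 1.43). Of sialomucins and relatives of ESAM, 8 of 16 were tested with 0 at an unadjusted p under 0.05 and a median of -0.10, where the adhesion receptor Pecam1 had 1.61 (SE 1.25). The adaptor Crkl had 1.19 (SE 1.44), with values that are whole in 1 of 7 libraries.

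Stem cell genes that had no place in the sort, 17 of 20 tested, had 0 at an unadjusted p under 0.05, 1 without overlap, against 4.94% of all genes, and a median of -0.14 on the log2 scale. The gene without overlap was Itgb3, an integrin subunit, at 10.5, 4.35, 9.76 and 22.4 FPKM in Dek_fl and 2.03, 2.15 and 0 FPKM in Dek_cKO, with a log2 difference of -2.39 (SE 1.26). The chemokine receptor gene Cxcr4 had 1.92 (SE 1.29), with whole reads in 3 of 7 libraries. Surface genes of progenitors, 13 of 16 tested, had 0 at an unadjusted p under 0.05, 1 without overlap, against 4.94% of all genes, and a median of 0.35. That gene was Tfrc, the transferrin receptor, at 1.86 (SE 1.23) with whole reads in 3 of 7 libraries, and Il3ra, an interleukin-3 receptor subunit, had -2.01 (SE 1.37).

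The label of long-term stem cells was set against marker lists. Of 11 antigens that lineage cocktails usually hold, only Ptprc passed the filter, at 39.8 to 112 FPKM. It encodes CD45 of all leukocytes, whose long isoform alone is the B cell antigen, and its log2 difference was -0.26 (SE 0.758). Of 14 markers of long-term stem cells, 12 passed the filter, and Slamf1 and the guanine nucleotide exchange factor gene Fgd5 did not. In 1 gene of this list the groups did not overlap, against 4.94% of all genes, and it was Gata2, a zinc finger transcription factor of stem cells. It was at 31.5, 73.1, 114 and 124 FPKM across Dek_fl and 7.52, 18.3 and 12.3 FPKM in Dek_cKO, a log2 difference of -2.56 (SE 0.935, limma unadjusted p = 0.0126, adjusted p = 0.9999), with whole reads in 5 of 7 libraries. All 9 markers of multipotent progenitors passed, with summed levels of 539.7 to 1283 FPKM in Dek_fl and 644 to 1132 FPKM in Dek_cKO. Those of the stem cell list were 386 to 629.6 and 383 to 801 FPKM. Dntt, the terminal transferase of lymphoid progenitors, had the second highest mean of the progenitor list at 147 FPKM, with no annotated length that gave whole reads. Transcripts of both states were thus present in every library, and transcripts of CD150 were at or near 0.

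Esam and Eng are shared with endothelial cells and Esam with platelets, so these lists are given beside them. Endothelial markers summed to 87.3 to 189.5 FPKM in Dek_fl and 117 to 163 FPKM in Dek_cKO, of which Egfl7, also a gene of stem cells, gave 63.9 to 129.7 FPKM and Pecam1 1.43 to 29.0 FPKM. The defining gene Cdh5 did not pass 0.340 FPKM in any library, and 6 of 15 endothelial genes were under 1 FPKM in all 7. Other genes of the list were higher in some libraries. Ramp2 reached 47.6 FPKM and Kdr 7.82 FPKM in Dek_cKO replicate 2. Sox18 reached 22.6 FPKM in Dek_fl replicate 3 and Cldn5 6.88 FPKM in Dek_cKO replicate 3. Emcn ran from 0.607 to 19.7 FPKM. Megakaryocyte markers summed to 197 to 1437 FPKM in Dek_fl and 263 to 462 FPKM in Dek_cKO, with Pf4 at 1055 FPKM in Dek_fl replicate 4 and 40.6 to 237 FPKM elsewhere. In this list Gp9 was at 0, 31.2, 24.7 and 0 FPKM across Dek_fl and 99.4, 21.6 and 35.5 FPKM in Dek_cKO. Its groups overlapped, with a log2 difference of 3.02 (SE 1.45, limma unadjusted p = 0.0499, adjusted p = 0.9999), where 3.94% of all genes tested had an unadjusted p under 0.05. Neutrophil and monocyte markers reached 809 to 2434 and 593 to 9697 FPKM, with Elane at 5393 FPKM and Prtn3 at 2019 FPKM in Dek_cKO replicate 3, and 3 of 12 were under 1 FPKM in all libraries. The part of these cells or transcripts in the levels of the 10 genes was not tested.

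The remaining lists rested largely on single genes. Erythroid markers summed to 691 to 1191 FPKM in Dek_fl and 398 to 942 FPKM in Dek_cKO, mostly through Car2 at 339 to 1039.6 FPKM, with Hbb-bt next at 12.3 to 116 FPKM. T and NK cell markers summed to 39.2 to 577 and 451 to 1351 FPKM, through Nkg7 at 34.9 to 1345 FPKM (limma unadjusted p = 0.0497, adjusted p = 0.9999), while Cd3d was at 0 in all libraries and Cd4 reached 48.6 FPKM in Dek_cKO replicate 2. B cell markers summed to 0 to 79.5 and 2.45 to 69.7 FPKM, led by Cd79b and Vpreb1. Those of mast cells and basophils summed to 6.14 to 59.7 and 1.24 to 12.2 FPKM, with Cpa3 and Mcpt8 highest by mean over libraries. Both were at 0 in Dek_cKO replicate 2, where Ms4a2 was at 11.1 FPKM. Cpa3, a protease of mast cells, was at 5.74, 54.8, 25.9 and 6.26 FPKM across Dek_fl and 0, 0 and 0.330 FPKM in Dek_cKO, without overlap (limma unadjusted p = 0.00664, adjusted p = 0.9999). It was 1 of 2 genes of this list that passed the filter. Of all genes tested, 4.94% had groups without overlap and 3.94% had a limma unadjusted p under 0.05. Stromal markers summed to 0.619 to 7.45 and 2.18 to 51.0 FPKM, with Pdgfrb and Cxcl12 highest by mean over libraries. Pdgfrb was at 49.5 FPKM in Dek_cKO replicate 2 and 0.0471 to 4.33 FPKM elsewhere. Cxcl12 was at 0 in 3 libraries.

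Genes whose pattern over the 7 libraries was most like a sort or stem cell marker were sought among the 3776 genes averaging 20 FPKM or more. For Kit they were Pno1, with Pearson's r of 0.948 and Spearman's rho of 0.857, and Aimp1, with 0.942 and 0.929. For Procr they were Wdr77, with 0.979 and 0.964, and Abce1, with 0.972 and 0.964. For Ly6a the most alike was Ccs, with 0.967 and 0.929 and values that are whole reads in 1 of 7 libraries. For Slamf1 they were Dctpp1, with 0.949 and 0.778, and the pseudogene Mrpl23-ps1, with 0.945 and 0.815, over values of Slamf1 that are 0 in 3 libraries. These are the highest of 3776 values from 7 libraries each and describe the libraries only.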

How the data were processed

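The authors deposited 1 table of FPKM per gene and library, whose 7 columns were matched to samples by title (0 columns were left unmapped). The tools named in the submitters' processing notes are HTSeq, Cufflinks 2.1.1 and Bowtie 0.12.9, with build mm10. Not given in the sources used here are what each was used for, the annotation and any use of strand. The design text mentions triplicates, but 4 libraries carry Dek_fl labels, and each of them was used.

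FPKM are not counts, so limma 3.58.1 in R 4.3.3 was fitted to log2(FPKM + 1) with the group alone, a mean-variance trend and robust moderation. It ran over the 10260 genes that reached 1 FPKM in 3 or more libraries, with Benjamini-Hochberg adjustment over all of them. A log2 difference is Dek_cKO minus Dek_fl and understates changes of low genes. Single genes were also compared by exact permutation of libraries, and gene pairs within libraries by exact sign-flip permutation.

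Reads were recovered as FPKM times transcript length times library total. The total was the smallest number that made values whole, and the length an annotated transcript length in GENCODE M21 (GRCm38, the assembly mm10 denotes), which holds 99.85% of the gene identifiers. A value counted as whole within its rounding to 4 decimals plus 0.003 reads. At the longest transcript, 93.05% to 94.44% of values above 0 in a library were whole. Counting steps and the limma fit were tested on simulated data. Promoter windows are from RefSeq, whose table held entries for 8 of the 10 genes, without Ly6a and Esam.

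The 10 genes and the lists were chosen with earlier results of these data known. From each related list the 2 tested genes of smallest p were named, from each marker list the 2 of highest mean FPKM, and, for 4 of the genes, the 2 most alike in pattern, of which 2 genes in all are not reported here. Fgd5, Gata2, Cdh5, Ramp2, Kdr, Sox18, Cldn5, Emcn, Gp9, Cd3d and Ms4a2 were named after their values were seen. Alternatives were pseudocounts of 0.1 and 0.5, other filters, scalings and weights, a replicate block, voom and leaving out each library. Same-numbered libraries of the groups did not deviate together (r of -0.03, -0.073 and 0.045). Permutations used scipy 1.17.1 under Python 3.11.15.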

Additional observations from a re-analysis of the deposited data

Results flagged for a closer look

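Dek_fl replicate 4 lay far from the other 3 libraries of its group in 4 of 15 measures assessed, on the log2(FPKM + 1) scale, where its gap to the nearest library, divided by the range of the group, passes Dixon's 95% critical value. It was the highest for Slamf1, at 1.70 FPKM, with a ratio of 0.943. It was the lowest for Cd48, at 4.10 FPKM, with a ratio of 0.907. It was also the highest for Ly6a minus Cd48, with a ratio of 0.953, and for Slamf1 minus Cd48, with a ratio of 0.916. These differences are not independent of its low Cd48, nor of its high Slamf1 and Ly6a. Ly6a was at 310.3 FPKM there against 111 to 168 FPKM in the rest of Dek_fl. Chance flags about 1 in 20 such groups. The same library has the fewest genes above 0, at 8575, and its part in these values was not tested.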

How the results depend on the processing

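The count of genes called between Dek_cKO and Dek_fl was 0 in all 18 alternatives, with a smallest adjusted p of 0.2602, by voom on the recovered reads. In each alternative Ly6a, Cd27, Esam and Eng kept their sign, and no adjusted p of the 9 genes tested was below 0.6964. Signs turned for Kit without Dek_cKO replicate 2 (-0.32) and by voom (-0.01), for Cd48 without Dek_cKO replicate 2 (0.30), and for Cd34 without Dek_fl replicate 2 (0.06) or Dek_cKO replicate 3 (0.02). They also turned for Procr without Dek_fl replicate 3 (0.07) or Dek_cKO replicate 2 (0.28). For Flt3 they turned with array weights (0.05), with the replicate block (0.05), by voom (0.07) and without Dek_fl replicate 4 (0.05). Esam was 1.05 with array weights and 0.87 by voom. The cause was not tested. Over the 7 fits that each leave out a library, the range was -0.32 to 0.75 for Kit, -2.04 to 0.30 for Cd48, -0.61 to 0.06 for Cd34, -0.70 to 0.28 for Procr and -1.08 to 0.05 for Flt3. The same gave -5.99 to -4.86 for Slamf1 minus Cd48 and -2.76 to -2.41 for Procr minus Cd34, with an adjusted p of 0.0781. With 6 libraries no p can be below 0.0312, which at 2 of 5 pairs adjusts to that value, so the p of such fits says nothing of stability. The differences themselves kept their sign in each of them. With the replicate number of the titles as a block 0 genes were called, as without it, and Dek_fl replicate 4, which has no partner, adds nothing to that fit. Whether equal numbers mark libraries handled together is not known, as values of r near 0 between such libraries cannot decide it. Counts below 50 reads limit Slamf1 in 6 libraries, Eng and Cd48 in 2 each, and Cd27 and Esam in 1 each.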
